A study of Homo sapiens with 10 samples.

Results

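The genes described here are 294 antisense RNAs expressed in 697 cells, each set beside the gene on the other strand from which it takes its name. They are the rows of the deposited expression table whose symbol ends in -AS or -AS with a number and which reached at least 1 RPKM (a read count divided by transcript length and by library size) in at least 2 of the 4 RNA-seq libraries. They were thus chosen by their own level, without the sense gene, and their levels are given as a description. The table held 1067 such symbols among 27142 genes. Of these, 1 was left out of the choice beforehand, 772 stayed under the threshold, and 335 of those 772 were listed at 0 in all 4 libraries. The table typed 292 of the 294 as noncoding RNA, 1 as a pseudogene and 1 as protein-coding. The sense gene, named by the symbol before -AS, had a row for 292 of them. These 292 pairs rest on 285 sense genes, because 7 sense genes have 2 antisense RNAs each.

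The study used 697, an established pre-B leukaemia cell line, grown with or without TPA (12-O-tetradecanoylphorbol-13-acetate), a phorbol ester that activates protein kinase C. RNA was sequenced from the parental line in 2 control and 2 TPA replicates. The dose of TPA was 0.5 µg/ml, for between 0 and 24 h; which time the RNA libraries stand for is not stated in the labels. The other 6 samples of the series, CTCF, linker histone H1 and input DNA libraries, were not analysed here, and the H1 libraries and 1 of the inputs came from an inducible 697 line expressing FH-NAP1.

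An antisense RNA is transcribed from the strand opposite to another gene. Some start beside the promoter of the sense gene and run away from it, some run across its exons or introns, and some meet it at its far end. Many are short-lived nuclear transcripts that the RNA exosome trims, while a few, such as OIP5-AS1, are abundant and conserved. Standard sequencing libraries that do not mark strand cannot tell reads of an antisense exon from reads of a sense exon at the same place. No source used here says that strand was kept in these libraries or in the counting. A difference in an antisense row whose exons overlap the sense gene is therefore a difference in reads at that place, and the strand they came from cannot be told apart.

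Steps between low values placed the other 3 libraries at 91.3% to 97.7% of the depth of control replicate 1. Such steps were sought only at depths near that of control replicate 1, so a large difference in depth could not have shown. The number of reads behind the libraries is unknown, so counting intervals are not given. Between 235 and 273 of the antisense RNAs reached 1 RPKM in each library. All 12 pre-B genes checked (CD79A, CD79B, VPREB1, DNTT and others) passed the filter, with summed RPKM of 2311 and 2309 in control and 1226 and 1406 with TPA, and 3 of them rose and 9 fell. T-cell genes summed to at most 0.124 RPKM in any library and erythroid genes to at most 0.120 RPKM, and CD3D, CD3E and HBB were listed at 0. Of 8 myeloid genes, CSF1R alone passed the filter (0.548 and 0.706 RPKM in control, 2.93 and 3.66 RPKM with TPA).

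Antisense RNAs were expressed at lower levels than their sense genes. The median antisense RNA had 2.86 and 2.83 RPKM in the control libraries and 3.31 and 3.66 RPKM with TPA, whereas the median sense gene had 10.1 and 10.3 RPKM in control and 9.59 and 10.4 RPKM with TPA. A mean over the 4 libraries of at least 10 RPKM was found for 48 of the 294, and the antisense mean lay above that of the sense gene in 64 of 292 pairs. The threshold itself separates near neighbours. Just inside it, DNMBP-AS1 had 1.01 and 1.20 RPKM in control and 0.723 and 0.916 RPKM with TPA, LGALS8-AS1 had 1.02, 0.623, 0.982 and 1.10 RPKM in the same order, and UBAC2-AS1 0.667, 0.529, 1.03 and 1.55 RPKM. Just outside it, C9orf41-AS1 had 0.991, 1.14, 0.603 and 0.737 RPKM, ENO1-AS1 0.431, 0.986, 0.783 and 1.10 RPKM, and OSTN-AS1 0, 0, 1.34 and 0.969 RPKM.

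The position of each pair was read from RefSeq annotation of GRCh38.p14, a later build than the hg19 of the table, so it gives the arrangement of the genes and not the exons that were counted. RefSeq held 291 of the 294 under the same accession, symbol or synonym, and 26 of these now carry a name ending in -DT, for divergent transcript. Another 2, UBXN10-AS1 and TNRC6C-AS1, are now listed under a different gene that has its own row, and were not placed. For 204 pairs the strand and span of both genes could be read. All 204 lay on opposite strands. Their spans overlapped with both starts in the overlap (head-to-head) in 62 pairs, with both ends in it (tail-to-tail) in 46, and with 1 gene inside the other (nested) in 47. In 41 the spans did not overlap and the starts lay within 1 kb (divergent), and 8 were farther apart. Head-to-head was read from the ends of the gene spans. The starts used for the promoter windows point away from each other in some of these pairs, among them those of OSER1-AS1 and DICER1-AS1.

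The promoter windows (250 bases before to 50 bases after the start) of antisense RNA and sense gene overlapped in 49 of the 204 pairs. The windows of 5 such antisense RNAs are given here because their pairs carry the contrast described further on: KCNJ2-AS1 moved with KCNJ2 and HHIP-AS1 with HHIP, while UBL7-AS1, EIF3J-AS1 and DICER1-AS1 moved against their sense genes. Each is the RefSeq GRCh38.p14 sequence, read 5′ to 3′ on the strand of the antisense RNA, and capitals mark the bases that also lie in the promoter window of the sense gene.
KCNJ2-AS1 (chr17:70169353-70169652, minus strand): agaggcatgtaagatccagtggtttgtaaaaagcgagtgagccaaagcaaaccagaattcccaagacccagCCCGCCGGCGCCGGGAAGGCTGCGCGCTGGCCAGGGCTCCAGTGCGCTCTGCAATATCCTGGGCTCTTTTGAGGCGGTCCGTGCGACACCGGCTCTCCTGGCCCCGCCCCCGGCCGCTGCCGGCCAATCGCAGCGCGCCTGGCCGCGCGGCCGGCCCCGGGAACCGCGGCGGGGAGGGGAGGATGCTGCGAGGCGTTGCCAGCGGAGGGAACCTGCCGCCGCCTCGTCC
HHIP-AS1 (chr4:144645970-144646269, minus strand): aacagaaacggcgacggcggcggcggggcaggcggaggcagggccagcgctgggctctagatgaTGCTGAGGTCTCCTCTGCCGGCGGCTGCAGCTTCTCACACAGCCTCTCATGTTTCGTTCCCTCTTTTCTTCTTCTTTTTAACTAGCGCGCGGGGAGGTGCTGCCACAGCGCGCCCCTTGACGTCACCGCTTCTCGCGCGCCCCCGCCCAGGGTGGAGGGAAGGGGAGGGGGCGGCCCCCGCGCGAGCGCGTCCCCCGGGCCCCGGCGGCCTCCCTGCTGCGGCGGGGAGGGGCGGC
UBL7-AS1 (chr15:74461015-74461314, plus strand): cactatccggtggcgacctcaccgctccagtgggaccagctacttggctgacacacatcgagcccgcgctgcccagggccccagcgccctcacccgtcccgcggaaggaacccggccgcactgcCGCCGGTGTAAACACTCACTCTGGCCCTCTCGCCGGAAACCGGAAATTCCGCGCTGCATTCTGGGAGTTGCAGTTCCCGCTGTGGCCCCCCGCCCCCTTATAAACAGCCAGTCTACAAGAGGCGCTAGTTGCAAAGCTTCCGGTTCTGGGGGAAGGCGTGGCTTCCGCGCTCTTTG
EIF3J-AS1 (chr15:44536874-44537173, minus strand): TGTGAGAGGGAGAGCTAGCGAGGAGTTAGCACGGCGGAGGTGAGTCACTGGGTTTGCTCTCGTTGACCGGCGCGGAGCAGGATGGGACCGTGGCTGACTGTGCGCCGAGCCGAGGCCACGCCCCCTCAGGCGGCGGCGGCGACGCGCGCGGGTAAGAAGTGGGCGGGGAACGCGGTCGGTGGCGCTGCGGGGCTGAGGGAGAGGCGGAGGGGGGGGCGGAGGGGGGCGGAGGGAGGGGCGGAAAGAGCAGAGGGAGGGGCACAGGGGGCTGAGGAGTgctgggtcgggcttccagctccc
DICER1-AS1 (chr14:95157438-95157737, plus strand): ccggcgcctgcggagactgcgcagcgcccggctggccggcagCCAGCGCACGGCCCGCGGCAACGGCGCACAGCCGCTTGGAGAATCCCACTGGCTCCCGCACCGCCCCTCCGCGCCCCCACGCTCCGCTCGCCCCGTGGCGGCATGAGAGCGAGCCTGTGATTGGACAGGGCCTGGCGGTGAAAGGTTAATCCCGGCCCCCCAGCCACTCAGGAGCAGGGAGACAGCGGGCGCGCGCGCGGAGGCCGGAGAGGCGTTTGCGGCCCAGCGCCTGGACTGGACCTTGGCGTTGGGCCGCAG
The shared stretch was 229 bases for KCNJ2-AS1, 236 for HHIP-AS1, 176 for UBL7-AS1, 277 for EIF3J-AS1 and 258 for DICER1-AS1. All 5 windows were rich in G and C (65% to 75%) and held between 26 and 38 CpG dinucleotides. The hexamer TATAAA was present only in the window of UBL7-AS1 among these 5.

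Across the 228 antisense RNAs with a promoter sequence, the median GC content was 63.2% and the median number of CpG dinucleotides 22.5. The values were 58.3% and 14 over all 27305 RefSeq promoters and 65.3% and 26 for 239 sense genes. The 27305 were not chosen by expression, whereas the antisense RNAs were, and promoters of expressed genes alone were not compared. TATAAA, searched on both strands, was in 6.14% of the antisense windows and 12.0% of all windows. GGGCGG, the letters of a GC box, was in 53.9% and 44.6%, CCGGAAGT, the letters of an ETS site, in 5.26% and 4.44%, and TGANTCA, the letters of an AP-1 site, in 4.82% and 7.76%. Among antisense RNAs that rose with TPA, 49 of 81 windows held GGGCGG (60.5%) and 5 held TGANTCA (6.17%). Among those that fell 26 of 59 (44.1%) and 1 (1.7%) did, and among those with no call 48 of 88 (54.55%) and 5 (5.68%). Each of these TGANTCA shares lay under the 7.76% of all windows. These are matches of letters, given as a description.

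With TPA, 105 of the 294 antisense RNAs rose and 70 fell, and 119 did not pass (limma, Benjamini-Hochberg adjusted p under 0.05 over 12159 genes tested). Over all genes tested the background was 28.4% rising and 29.8% falling, so the 35.7% and 23.8% of antisense RNAs called lay above and below it. The threshold on level bears on these shares. Of the antisense RNAs, 48 reached 1 RPKM in both TPA libraries and neither control library, and 43 of these rose. Another 17 did so in control only, and 16 of these fell. The direction of such members follows from the choice. Among those named, ITGB2-AS1, UBXN10-AS1, FUT8-AS1, GPC5-AS1, TAF1A-AS1, OSER1-AS1, TRG-AS1, UBAC2-AS1 and the antisense RNAs of DLGAP1 and TSPEAR reached it with TPA only, and IGFBP7-AS1, DIO2-AS1, EMC3-AS1 and DNMBP-AS1 in control only. Among the 202 that reached 1 RPKM in all 4 libraries, 53 rose and 52 fell, which is 26.2% and 25.7%, against 25.2% and 29.7% of 10756 genes chosen the same way. The median log2 fold change on the log2(RPKM + 1) scale was 0.14 over the 294 and -0.02 over the 202, against -0.02 over all genes tested. At least 2-fold on that scale, 44 of the 294 rose (15.0%) and 24 fell (8.16%), against 11.7% and 11.5% of all genes tested. The threshold on level bears on these shares too. TPA and control libraries did not overlap for 138 antisense RNAs that were higher with TPA (46.9%) and 100 that were lower (34.0%), against 38.8% and 41.0% of all genes tested, or 79.8% in either direction. Of the 259 sense genes tested, whose values the choice did not use, 74 rose, 80 fell and 105 did not pass, with a median of -0.03. Whether replicates came from separate cultures is not stated, and p-values then measure the spread between these libraries, which may be technical. In such bulk RNA, fewer cells of a kind and less RNA per cell cannot be told apart.

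The antisense RNA with the largest rise was ITGB2-AS1 (21q22.3). It had 0.076 and 0 RPKM in control and 27.9 and 23.7 RPKM with TPA. Its log2 fold change was 4.69. It reached the threshold in the TPA libraries only, so its direction follows from the choice. Its sense gene ITGB2, which encodes the beta-2 integrin of leukocytes, was already present in control at 10.5 and 8.89 RPKM and reached 363 and 343 RPKM. The antisense RNA was thus near 0 in both controls while the integrin gene was not. KCNJ2-AS1 (17q24.3) rose from 1.83 and 1.399 to 24.96 and 26.2 RPKM, 15.8-fold, and the potassium channel gene KCNJ2 from 18.6 and 15.9 to 160 and 139 RPKM, 8.66-fold. Their starts lie 130 bases apart in RefSeq on opposite strands, with the shared promoter printed above.

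IL21R-AS1 (16p12.1) rose from 1.47 and 0.880 to 14.0 and 14.3 RPKM, beside the interleukin-21 receptor gene IL21R, which rose from 2.14 and 1.29 to 23.0 and 23.7 RPKM. HLA-DQB1-AS1 (6p21.32) rose from 2.29 and 0.718 to 14.6 and 20.4 RPKM, beside the class II beta chain gene HLA-DQB1, from 5.55 and 4.49 to 52.8 and 74.3 RPKM. HLA genes have near-identical relatives, so both rows are uncertain. CD27-AS1 (12p13.31) rose from 1.07 and 1.15 to 5.93 and 6.603 RPKM and exceeded the costimulatory receptor gene CD27 in every library (0.357 and 0.450 RPKM, then 2.80 and 3.02 RPKM). In these 3 pairs the control and TPA libraries did not overlap for either gene, as was so for 79.8% of all genes tested. The antisense RNAs were picked by their differences in these same libraries.

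STARD4-AS1 (5q22.1) rose from 7.33 and 6.94 to 52.7 and 41.7 RPKM, beside STARD4, a cholesterol transfer protein gene, from 21.8 and 19.0 to 229 and 187 RPKM. FUT8-AS1 (14q23.3) rose from 0.442 and 0.368 to 7.08 and 4.41 RPKM, beside FUT8, which adds core fucose to N-glycans, from 9.32 and 9.26 to 35.9 and 33.5 RPKM. UBXN10-AS1 (1p36.12) rose from 0.042 and 0.216 to 4.12 and 5.01 RPKM with UBXN10, from 0.038 and 0.012 to 2.75 and 2.01 RPKM. In all 3 pairs both genes rose. RefSeq now lists the UBXN10-AS1 accession under the phospholipase gene PLA2G2C, which in this table had 0 RPKM in control and 0.742 and 1.21 RPKM with TPA.

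In 4 of the 12 largest rises the sense gene was under the filter, did not pass or rose by much less; the difference between antisense RNA and sense gene was not tested. PSMG3-AS1 (7p22.3) rose from 1.05 and 0.814 to 6.12 and 7.40 RPKM (log2 fold change 2.003, SE 0.146, adjusted p = 1.39e-05), while PSMG3, a proteasome assembly chaperone gene, had 33.6 and 34.7 RPKM in control and 30.4 and 36.9 RPKM with TPA (log2 fold change -0.03, SE 0.145, adjusted p = 0.888). GPC5-AS1 (13q31.3) was listed at 0 in both controls and had 2.10 and 2.87 RPKM with TPA, and DLGAP1-AS1 (18p11.31) went from 0.086 and 0 to 3.93 and 4.26 RPKM. Their sense genes, the glypican gene GPC5 and the postsynaptic scaffold gene DLGAP1, had at most 0.024 and 0.031 RPKM in any library. DLGAP1-AS2, a second antisense RNA of DLGAP1, also rose, from 0.023 and 0 to 1.51 and 1.29 RPKM.

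TNRC6C-AS1 (17q25.3) had the second largest rise, from 4.93 and 4.57 to 71.7 and 70.5 RPKM, with a log2 fold change of 3.65 and an SE of 0.129 (adjusted p = 4.96e-07). TNRC6C, a gene of the microRNA silencing complex, rose from 2.62 and 2.32 to 5.03 and 4.62 RPKM. RefSeq now gives TNRC6C-AS1 as a synonym of TMC6, a transmembrane channel-like gene in the same band. The table has a row of its own for TMC6, which rose from 27.9 and 25.1 to 202 and 168 RPKM (log2 fold change 2.75, adjusted p = 2.99e-06). The TNRC6C-AS1 row and TMC6 were thus high in the same 2 libraries, and their reads cannot be told apart here.

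**Figure D1:**
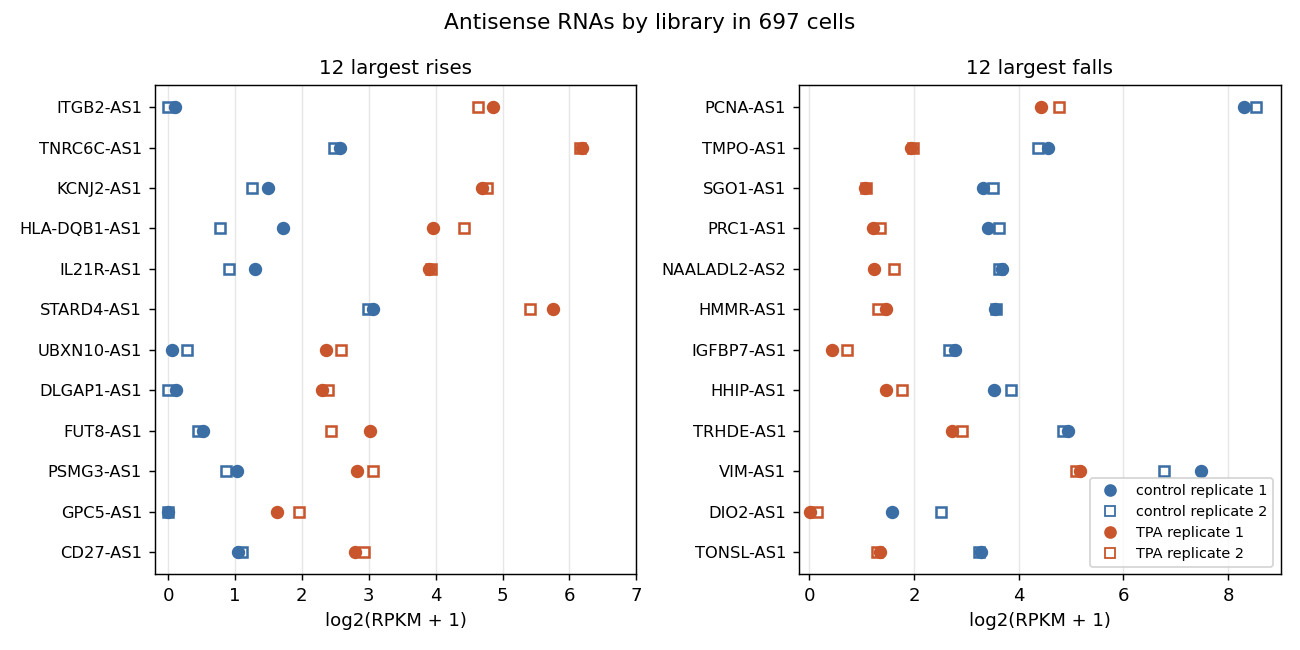
Level of the 12 antisense RNAs with the largest rise (left) and the 12 with the largest fall (right) in each library, as log2(RPKM + 1). Filled circles are replicate 1 and open squares replicate 2, blue for control and red for TPA. Control and TPA points do not overlap in any of the 24 rows, which were picked by their differences in these same libraries. Of all genes tested, 79.8% did not overlap. ITGB2-AS1, UBXN10-AS1, DLGAP1-AS1, FUT8-AS1 and GPC5-AS1 reached 1 RPKM with TPA only, and IGFBP7-AS1 and DIO2-AS1 in control only, so their directions follow from the choice.

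PCNA-AS1 (20p12.3) fell from 315 and 368 to 20.6 and 26.3 RPKM (log2 fold change -3.81, SE 0.164, adjusted p = 1.06e-06). PCNA, the replicative clamp gene, fell from 344 and 442 to 20.0 and 29.7 RPKM. The antisense row equalled 87.0% of the PCNA row in control and 94.4% with TPA, and RefSeq places it inside PCNA. TONSL-AS1 (8q24.3) fell from 8.69 and 8.42 to 1.55 and 1.45 RPKM, with TONSL, a replication fork repair gene, from 37.6 and 36.4 to 4.70 and 4.07 RPKM.

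SGO1-AS1 (3p24.3) fell from 9.03 and 10.4 to 1.10 and 1.13 RPKM, with SGO1, which protects centromeric cohesin, from 11.1 and 13.1 to 1.02 and 1.57 RPKM. PRC1-AS1 (15q26.1) fell from 9.71 and 11.3 to 1.31 and 1.55 RPKM, with the spindle midzone gene PRC1 from 39.2 and 45.8 to 5.33 and 5.60 RPKM. HMMR-AS1 (5q34) fell from 10.7 and 10.8 to 1.77 and 1.47 RPKM, with HMMR, a hyaluronan receptor that acts at spindles, from 32.8 and 35.3 to 5.48 and 4.79 RPKM. By group means SGO1-AS1 equalled 80.4% of SGO1 in control and 86.2% with TPA. With TPA both rows were at 1.57 RPKM or less, and SGO1-AS1 lay above SGO1 in replicate 1 and below it in replicate 2. In the other 2 pairs the antisense row kept a near-constant share of the sense row. The shares (control, then TPA) were 24.7% and 26.1% for PRC1 and 31.6% and 31.6% for HMMR. TMPO-AS1 (12q23.1) differed, falling 7.30-fold from 22.6 and 19.8 to 2.86 and 2.94 RPKM, while TMPO, a gene of nuclear lamina proteins, fell 3.58-fold from 113 and 130 to 30.0 and 37.6 RPKM. Its share of the sense row went from 17.5% to 8.58%.

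VIM-AS1 (10p13) fell from 177 and 108 to 35.1 and 33.3 RPKM, with the intermediate filament gene VIM from 536 and 446 to 113 and 129 RPKM. TRHDE-AS1 (12q21.1) fell from 29.8 and 27.9 to 5.64 and 6.55 RPKM, with the peptidase gene TRHDE from 66.5 and 85.7 to 12.6 and 16.2 RPKM. IGFBP7-AS1 (4q12) fell from 5.89 and 5.36 to 0.346 and 0.657 RPKM, with IGFBP7, a secreted growth factor-binding protein gene, from 59.1 and 75.9 to 4.65 and 7.87 RPKM. Both genes of each of these 3 pairs were lower in both TPA libraries than in either control, as were 41.0% of all genes tested. IGFBP7-AS1 reached the threshold on level in the control libraries only, so its direction follows from the choice. HHIP-AS1 (4q31.21), which shares its promoter with HHIP, was the more abundant of its pair and fell from 10.6 and 13.5 to 1.77 and 2.41 RPKM; HHIP, a Hedgehog-binding protein gene, fell from 1.53 and 2.39 to 0.129 and 0.204 RPKM. NAALADL2-AS2 (3q26.31) fell from 11.8 and 11.2 to 1.35 and 2.09 RPKM and DIO2-AS1 (14q31.1) from 2.0 and 4.71 to 0.014 and 0.103 RPKM, beside sense genes that had at most 0.552 RPKM in any library. DIO2 encodes a thyroid hormone deiodinase.

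The most abundant antisense RNA was LRRC75A-AS1 (17p11.2), now named SNHG29 in RefSeq, a small nucleolar RNA host gene. It had 1139 and 1128 RPKM in control and 1358 and 1700.0 RPKM with TPA (log2 fold change 0.42, SE 0.155, adjusted p = 0.0457), while LRRC75A had 5.39, 5.04, 6.003 and 7.45 RPKM and did not pass (adjusted p = 0.101). The rise of LRRC75A-AS1 no longer passed without control replicate 1, control replicate 2 or TPA replicate 2 (adjusted p = 0.197, 0.222 and 0.190). OIP5-AS1 (15q15.1), a conserved RNA also known as Cyrano, fell 2.55-fold, from 63.8 and 63.1 to 23.5 and 26.3 RPKM. OIP5, a centromere chromatin assembly gene, fell 9.94-fold, from 13.5 and 15.5 to 1.33 and 1.59 RPKM. MIF-AS1 (22q11.23) had 254 and 154 RPKM in control and 140 and 77.4 RPKM with TPA, and the cytokine gene MIF had 955, 584, 531 and 292 RPKM. Control and TPA libraries of MIF-AS1 did not overlap, but control replicate 2 lay closer to TPA replicate 1 than to control replicate 1 (adjusted p = 0.0327), and it did not pass without control replicate 1 or TPA replicate 2 (adjusted p = 0.0616 and 0.211), nor did MIF (0.0702 and 0.215). Its log2 ratio to MIF lay between -1.91 and -1.90 in every library, so the antisense row followed MIF between replicates as well as between groups.

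The antisense to sense ratio was taken in each library as log2((antisense RPKM + 1)/(sense RPKM + 1)). Over 292 pairs the control libraries had medians of -1.44 and -1.51 and the TPA libraries -1.33 and -1.18, and the difference between TPA and control was under 0.5 in size for 189 pairs. It was over 1 for 30 pairs and under -1 for 11. Among those over 1, TNRC6C-AS1 went from 0.71 and 0.75 to 3.59 and 3.67 and DNAJC9-AS1 from -3.94 and -3.55 to -1.42 and -1.47. The choice used the antisense level, which enters this ratio. The threshold was reached with TPA only by 48 antisense RNAs and in control only by 17, so it bears on these medians and counts. The highest ratio in every library, 7.48 to 7.65, was that of LRRC75A-AS1. Of the 6 antisense RNAs with the highest mean RPKM relative to the sense gene, the other 5 had a sense gene at 0.078 RPKM or less in every library. FGD5-AS1 (3p25.1) fell from 35.3 and 43.9 to 24.8 and 29.1 RPKM, with FGD5, an exchange factor gene of endothelium, at 0.078 RPKM or less; it did not pass without control replicate 2 or TPA replicate 1 (adjusted p = 0.211 and 0.0968). NUTM2A-AS1 (10q23.2) had 5.87 and 5.36 RPKM in control and 5.36 and 5.94 RPKM with TPA and did not pass (adjusted p = 0.971), and CPEB1-AS1 (15q25.2) had 1.78 and 2.01, then 1.30 and 1.93 RPKM and did not pass either (adjusted p = 0.425). NUTM2A had at most 0.036 RPKM, and CPEB1, a translation control gene, at most 0.008 RPKM. The pairs of FGD5-AS1 and NUTM2A-AS1 are among the 8 whose spans lie farther apart in RefSeq.

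**Figure D2:**
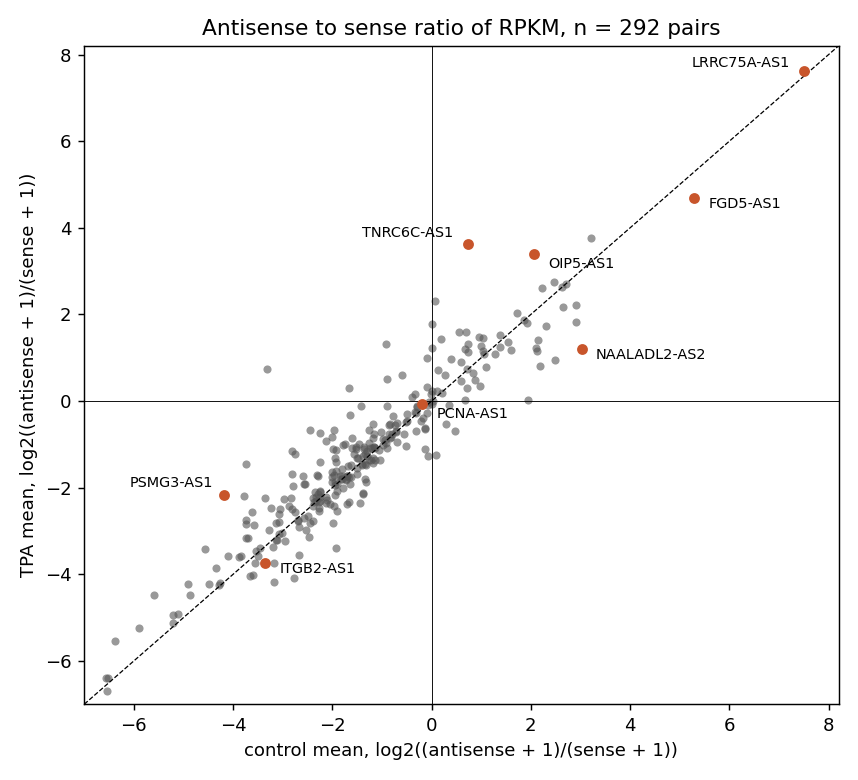
Antisense to sense ratio, log2((antisense RPKM + 1)/(sense RPKM + 1)), as the mean of the 2 control libraries (horizontal axis) against the mean of the 2 TPA libraries (vertical axis) for 292 pairs. The dashed line marks equal ratios; TNRC6C-AS1, OIP5-AS1 and PSMG3-AS1 lie above it and NAALADL2-AS2 and FGD5-AS1 below it.

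Antisense RNA and sense gene were both tested in 264 pairs, and both were called in 115. In 104 of the 115 both went the same way, 58 rising and 46 falling, and in 11 they went opposite ways. Of all genes tested, 28.4% rose and 29.8% fell. These pairs include antisense RNAs that reached the threshold with TPA only, such as ITGB2-AS1 and TAF1A-AS1, whose direction follows from the choice. In 39 pairs the antisense RNA was called and the sense gene did not pass, and in 41 the reverse; whether antisense RNA and sense gene differ in these pairs was not tested. Over the 264 pairs the correlation of the antisense and sense log2 fold changes was 0.796 (Pearson) and 0.712 (Spearman). This is a description across pairs that share the same 4 libraries, and where exons overlap they may share reads. For 28 pairs the sense gene was under the filter.

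**Figure D3:**
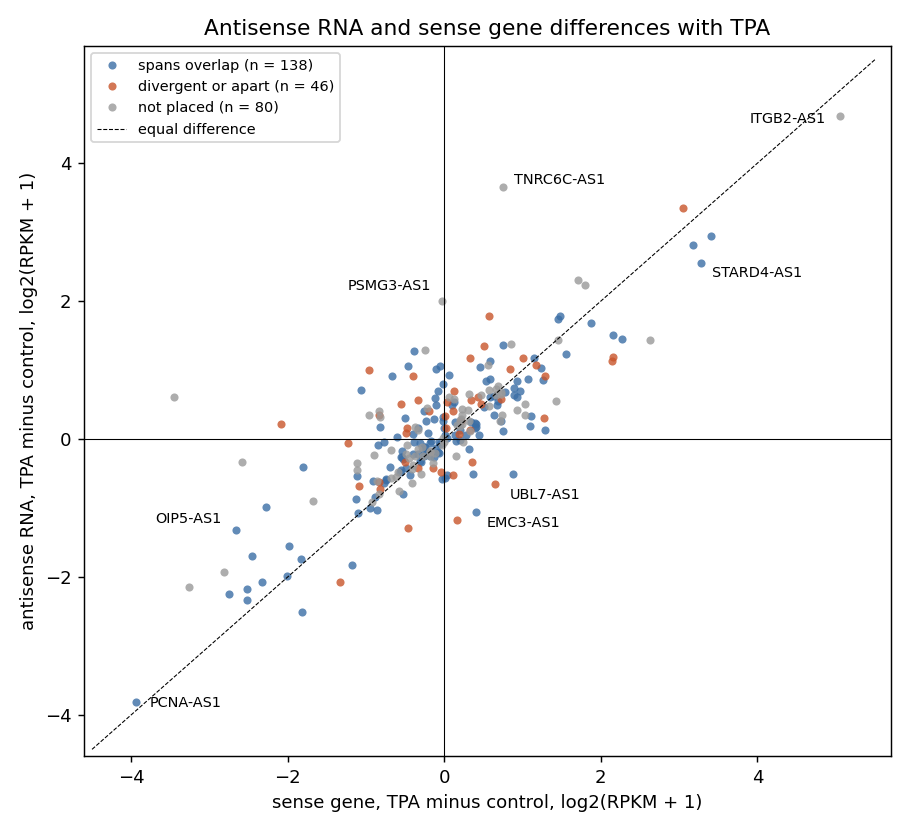
Difference between TPA and control, on the log2(RPKM + 1) scale, of the sense gene (horizontal axis) and the antisense RNA (vertical axis) in the 264 pairs with both tested, coloured by whether the gene spans overlap in RefSeq. Points in the lower left and upper right moved together; UBL7-AS1 and EMC3-AS1, at the lower right, moved against their sense genes.

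How closely antisense RNA and sense gene moved is given for each arrangement. In nested pairs (40 with both tested) the correlation of log2 fold changes was 0.932, in tail-to-tail pairs (40) 0.882, in head-to-head pairs (58) 0.760 and in divergent pairs (41) 0.649. The median size of the difference between the antisense and sense log2 fold change was 0.18 in nested pairs, 0.29 in tail-to-tail pairs, 0.31 in head-to-head pairs and 0.57 in divergent pairs. Of pairs with both called, 22 of 23 nested and 15 of 15 tail-to-tail pairs went the same way, as did 21 of 26 head-to-head and 13 of 16 divergent pairs. These are values side by side, and the differences between arrangements were not tested. Some head-to-head pairs, among them the opposite pairs of OSER1-AS1 and DICER1-AS1, have promoter starts that point away from each other, as in divergent pairs.

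Replicates, which share a treatment, were read in the same way. Over 138 pairs with overlapping spans, the difference between control replicates of the antisense RNA correlated at 0.452 with that of the sense gene, and the difference between TPA replicates at 0.493. Over the 41 divergent pairs these values were 0.0814 and 0.159. The difference between these values was not tested. The part that reads shared between strands have in these values was not tested.

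Pairs were also read by whether their promoter windows overlap. Among the 49 pairs that do, both genes were called in 22, of which 16 went the same way and 6 opposite ways. Among 155 pairs with separate windows both were called in 62, of which 58 went the same way and 4 opposite ways. The difference between these shares was not tested. Examples that moved together, beside KCNJ2-AS1 and HHIP-AS1, include NCK1-AS1 (log2 fold change 1.78) with NCK1 (0.57), an adaptor gene of receptor signalling, and ZNF561-AS1 (1.17) with ZNF561 (1.004). DNAJC9-AS1 and NUP50-AS1 did not pass (0.22 and -0.06) while DNAJC9, a histone co-chaperone gene, and NUP50, a nuclear pore gene, fell (-2.08 and -1.23). These 4 pairs were chosen after their values were seen.

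In 8 of the 11 opposite pairs the antisense RNA rose and the sense gene fell. DICER1-AS1 (14q32.13) rose from 1.15 and 1.10 to 2.69 and 4.29 RPKM, while DICER1, which cuts microRNA precursors, fell from 8.86 and 9.38 to 6.77 and 5.91 RPKM. The fall of DICER1 did not pass without control replicate 1, control replicate 2 or TPA replicate 2 (adjusted p = 0.0722, 0.142 and 0.0696). The antisense row stayed below the sense row in every library. CCDC18-AS1 (1p22.1) rose from 1.69 and 1.28 to 4.21 and 3.74 RPKM, while CCDC18 fell from 6.54 and 7.08 to 2.92 and 3.11 RPKM, so that the antisense row ended above the sense row. The spans of CCDC18-AS1 and CCDC18 do not overlap in RefSeq, and the pair is among the 8 that lie farther apart.

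GABPB1-AS1 (15q21.2) rose from 3.56 and 3.003 to 6.88 and 5.25 RPKM, while GABPB1, a partner subunit of an ETS factor, fell from 21.0 and 23.5 to 9.80 and 10.4 RPKM. TAF1A-AS1 (1q41) rose from 0.550 and 0.133 to 1.36 and 1.63 RPKM, while TAF1A, a subunit of an RNA polymerase I factor, fell from 14.6 and 20.1 to 9.38 and 11.5 RPKM. EIF3J-AS1 (15q21.1) rose from 3.25 and 4.21 to 4.98 and 6.47 RPKM, while the translation initiation gene EIF3J fell from 54.4 and 59.6 to 36.5 and 40.9 RPKM. Control and TPA libraries did not overlap in either gene of these 3 pairs, as was so for 79.8% of all genes tested. TAF1A-AS1 reached the threshold on level in the TPA libraries only, so its direction follows from the choice. TAF1A did not pass without control replicate 2 or TPA replicate 1 (adjusted p = 0.126 and 0.0850), EIF3J-AS1 without control replicate 1 or TPA replicate 2 (0.206 and 0.140), and EIF3J without control replicate 2 (0.105). OSER1-AS1 and TRAM2-AS1 also rose against their sense genes, with log2 fold changes of 1.28 and 0.36 against -0.39 for OSER1 and -0.84 for TRAM2. These 2 pairs, and EMC3-AS1 in the next paragraph, were named after their values were seen. OSER1-AS1 also reached the threshold in the TPA libraries only, so its rise follows from the choice.

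In 3 pairs the antisense RNA fell and the sense gene rose. UBL7-AS1 (15q24.1) fell from 2.84 and 3.15 to 1.45 and 1.63 RPKM (adjusted p = 0.00322), while UBL7, a ubiquitin-like protein gene, rose from 27.0 and 25.8 to 37.2 and 47.1 RPKM (adjusted p = 0.00739). LMO7-AS1 (13q22.2) fell from 6.59 and 6.67 to 4.03 and 4.72 RPKM, while the LIM domain gene LMO7 rose from 0.705 and 0.644 to 2.01 and 2.12 RPKM. EMC3-AS1 (3p25.3) fell from 1.61 and 1.56 to 0.241 and 0.229 RPKM, while EMC3, an endoplasmic reticulum membrane complex gene, rose from 8.997 and 8.66 to 12.2 and 11.8 RPKM. In each of the 3 the antisense RNA was lower and the sense gene higher with TPA, with no overlap between control and TPA libraries. Of all genes tested, 79.8% did not overlap. EMC3-AS1 reached the threshold on level in the control libraries only, so its direction follows from the choice. LMO7-AS1 did not pass without control replicate 1 or 2 (adjusted p = 0.0594 and 0.0747), with log2 fold changes of -0.52 and -0.50 against -0.51 with all 4 libraries. The count of 11 opposite pairs was 5 without control replicate 1 and 4 without control replicate 2. In these 2 fits limma's prior degrees of freedom were infinite, so every gene had the variance of the trend, and a lost call there need not go with a smaller fold.

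**Figure D4:**
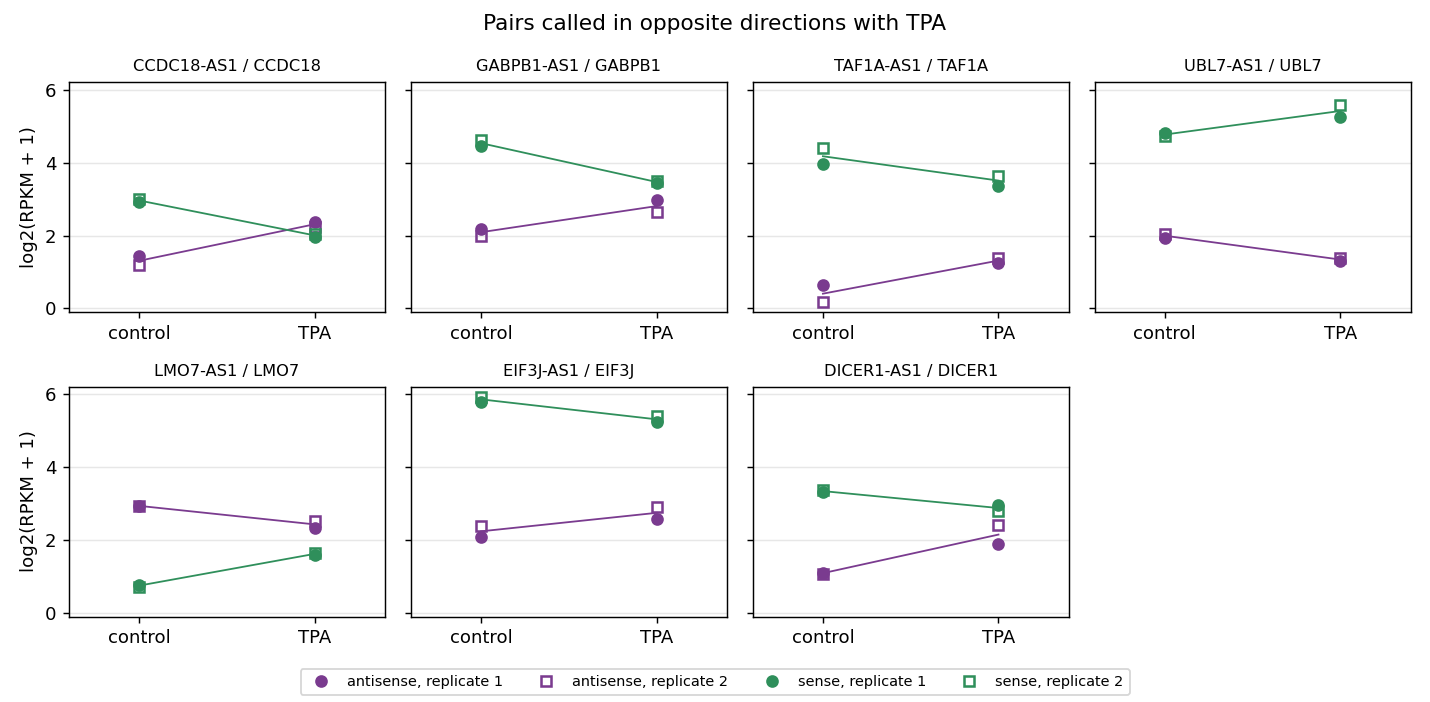
Levels, as log2(RPKM + 1), of 7 of the 11 pairs called in opposite directions, antisense RNA in purple and sense gene in green, in control (left of each panel) and TPA (right). Filled circles are replicate 1, open squares replicate 2, and lines join the group means; in the CCDC18 pair alone among these 7 the lines cross.

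Of the 7 sense genes with 2 antisense RNAs, 6 had the same call for both. These pairs too were named after their values were seen. Both antisense RNAs of DLGAP1 and of TSPEAR rose, and both of CTBP1, HIF1A, PTOV1 and ZNF32 did not pass. HIF1A-AS2 had 22.6 and 26.4 RPKM in control and 22.2 and 25.5 RPKM with TPA, beside HIF1A, the hypoxia factor gene (log2 fold change -0.07). PAXIP1-AS2 fell (log2 fold change -0.45) and PAXIP1-AS1 did not pass (-0.35), beside PAXIP1, a DNA damage response gene, which fell (-1.11). Antisense RNAs named for ZNF zinc finger genes numbered 13, of which 6 rose, 1 fell and 6 did not pass, beside 28.4% and 29.8% of all genes tested. The sense gene was tested in 12 of these pairs, in which it rose in 5, fell in 0 and did not pass in 7. ZNF32 is counted in 2 of these pairs, once with each of its antisense RNAs. Counts this small are given as a description.

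No sense row was found for 2 antisense RNAs. TRG-AS1 (7p14.1), named for the T-cell receptor gamma locus, rose from 0.400 and 0.579 to 1.27 and 1.98 RPKM; it reached the threshold in the TPA libraries only. RPARP-AS1 (10q24.32) fell from 10.3 and 8.79 to 5.52 and 6.67 RPKM (adjusted p = 0.0111), and did not pass without control replicate 1 or TPA replicate 1 (adjusted p = 0.0944 and 0.0573). Control and TPA libraries did not overlap in either, as was so for 79.8% of all genes tested.

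Genes whose products trim or bind such transcripts were read from lists. Noncoding RNA turnover was covered by 33 tested genes (RNA exosome subunits, its nuclear cofactors, and decay enzymes), of which 3 rose and 16 fell, with 14 not passing and with a median log2 fold change of -0.32 against -0.02 for all genes tested. Over all genes tested 28.4% rose and 29.8% fell. The exosome subunit gene EXOSC9 fell from 45.4 and 54.4 to 14.6 and 17.0 RPKM, and DIS3L, a cytoplasmic exosome nuclease gene, from 25.2 and 26.4 to 8.97 and 10.9 RPKM. XRN1, the cytoplasmic decay nuclease gene, rose from 3.81 and 3.89 to 6.64 and 6.66 RPKM, and ZFC3H1, which feeds nuclear transcripts to the exosome, from 9.81 and 10.2 to 14.8 and 13.3 RPKM. The 3 that rose became 1 without control replicate 1 and 1 without TPA replicate 1.

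The list for double-stranded RNA handling had 29 tested genes, of which 7 rose and 12 fell, with 10 not passing and with a median of -0.09, beside the same 28.4% and 29.8% of all genes tested. It also holds the ribonuclease H genes RNASEH1, RNASEH2A, RNASEH2B and RNASEH2C, whose enzymes cut RNA paired with DNA and not double-stranded RNA. All of these fell and are counted in the 12. The RNA editing enzyme gene ADARB1 rose from 25.4 and 25.5 to 106 and 111 RPKM and AGO2, the slicing Argonaute gene, from 9.47 and 9.04 to 22.1 and 16.3 RPKM. RNASEH2A, the catalytic subunit gene of ribonuclease H2, which acts at replication forks, fell from 55.8 and 56.6 to 7.28 and 8.50 RPKM, and the helicase gene DHX9 fell from 111 and 122 to 59.2 and 55.9 RPKM. The 12 that fell became 7 without control replicate 2.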

How the data were processed

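RNA-seq of 2 control and 2 TPA libraries was used. The authors deposited 1 table in RPKM, per the file headers, with 1 accession, symbol and band per gene. CASAVA 1.8, Bowtie 1.12, TopHat, SAMtools and HOMER and build hg19 are named in the submitters' processing notes, without role or order; use of strand is not given in the sources used here. No count test was run on RPKM. Samples were grouped from their titles. The 12159 genes that reached 1 RPKM in 2 or more of 4 libraries were fitted as log2(RPKM + 1) with limma 3.58.1 in R 4.3.3 (TPA minus control, trend, 5.88 prior and 2 residual degrees of freedom), with two-sided p-values adjusted by Benjamini-Hochberg over all of them; fold changes on this scale understate those of low genes. The code was tested on simulated data. Linear folds are ratios of mean RPKM. The members and lists were chosen with earlier results of these data known. Named genes are the 12 largest rises and falls, the 6 highest means, up to 8 opposite and 8 same-direction pairs, the 6 highest ratios to the sense gene, those without a sense row, and 3 on each side of the threshold; of each list, the 2 with the smallest p in each direction. Some genes this rule picks are not reported here. Alternatives were pseudocounts of 0.1 and 0.5, no filter or 5 RPKM, median-of-ratios scaling, quantile normalization, no trend, a replicate block and leaving out each library. Figures were drawn with matplotlib 3.10.9.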

Additional observations from a re-analysis of the deposited data

How the results depend on the processing

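Pseudocounts of 0.1 and 0.5, median-of-ratios scaling, quantile normalization and limma without the trend left every count of calls given for antisense RNAs, sense genes, pairs and both lists within 1.5 times its value. With no filter, where 27142 genes are fitted and the prior degrees of freedom fall to 0.663, 42 antisense RNAs rose and 23 fell, 46 sense genes rose and 47 fell, 36 pairs went the same way and 2 opposite ways, 1 turnover gene rose and 7 fell, and 3 genes of double-stranded RNA handling rose. With the filter at 5 RPKM, which leaves 123 of the antisense RNAs, 37 rose and 42 fell, and 45 pairs went the same way and 1 opposite ways. The libraries share replicate numbers but no label pairs them, and the deviations of same-numbered libraries correlated at 0.361 over genes; with the replicate block 18 pairs went opposite ways, and the other counts stayed within 1.5 times.

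Leaving out 1 library at a time, where the lone library is assumed to vary like the other group, opposite pairs numbered 4 to 13, turnover genes that rose 1 to 2 and genes of double-stranded RNA handling that fell 7 to 13. When control replicate 1 or 2 was dropped, limma's prior degrees of freedom were infinite, so those p-values rest on the variance trend alone and calls lost there differ from the main ones in variance as well as in samples. Of the genes named, those that changed sign had no call in any fit: NUTM2A-AS1 (0.01) was -0.00317 after quantile normalization and -0.057 to 0.070 with 1 library left out, PSMG3 (-0.03) was 0.00402 after median-of-ratios scaling, 0.11 after quantile normalization and -0.16 to 0.11 with 1 library left out, and CPEB1-AS1 (-0.15) was -0.33 to 0.021 with 1 library left out. LRRC75A, with no call, passed after median-of-ratios scaling (0.33), and MIF and MIF-AS1 did not pass after either rescaling. The unknown read depth limits what low RPKM values can show.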
